A study of Mus musculus with 3 samples.

Results

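The genes described here carry out or control the presentation of cytosolic peptides on MHC class I, followed across the cell types of the injured mouse brain. They are 9 of the 55357 genes listed for every library, taken by name: H2-K1 (the heavy chain of H2-K), H2-D1 (the heavy chain of H2-D), B2m, Tap1, Tap2, Tapbp, Psmb8, Psmb9 and Nlrc5. The rule is by name and uses no measured value. All 9 had counts in each of the 3 libraries.

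Perilesional tissue from the left brain of male C57BL/6 mice aged 6 to 8 weeks was digested with collagenase and neutral protease, depleted of red cells and dead cells, and profiled by droplet single-cell RNA sequencing of the 3' ends of transcripts. There was 1 library per group: a sham library, a TBI+PBS library taken 3 days after traumatic brain injury (TBI) with vehicle, and a TBI+IL-25 library taken 3 days after the same injury. In the last of these, interleukin-25 (IL-25), a cytokine best known for type 2 immunity, was given at 1 µg per mouse within 30 min of injury and then daily. The number of animals behind each library is not given in the labels, and nothing separates an effect of treatment from a difference between libraries, so no test between groups was possible.

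Nearly every nucleated cell can display peptides on class I. The proteasome cuts proteins into peptides, with Psmb8 and Psmb9 replacing constitutive catalytic subunits in the immunoproteasome. The Tap1 and Tap2 transporter moves the peptides into the endoplasmic reticulum, where tapasin (Tapbp) holds empty heavy chains paired with B2m until a peptide is bound. The complex at the surface is read by CD8 T cells and by receptors on natural killer cells. Interferons raise transcription of the whole set through factors such as those of the IRF family, and NLRC5 is the transactivator of class I promoters. Resting brain parenchyma is known for low class I levels.

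Promoter sequences are shown because these genes are commonly treated as one co-regulated set, and the letters show what the promoters do and do not share. RefSeq entries (GRCm38.p6) were found for 7 of the 9 genes. The submitters' processing notes name GRCm39, so the positions belong to the older build. Below are the 250 bases before the annotated start of 5 genes, 5' to 3' on the strand of the gene, with matches to any of 5 searched motifs in capitals.
H2-K1, chr17:34000334-34000583 (minus strand): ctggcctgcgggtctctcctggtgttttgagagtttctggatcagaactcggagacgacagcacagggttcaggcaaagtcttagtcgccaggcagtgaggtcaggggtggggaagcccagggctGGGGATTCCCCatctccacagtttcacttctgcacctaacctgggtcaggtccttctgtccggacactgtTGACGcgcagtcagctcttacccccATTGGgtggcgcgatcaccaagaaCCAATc
H2-D1, chr17:35262844-35263093 (plus strand): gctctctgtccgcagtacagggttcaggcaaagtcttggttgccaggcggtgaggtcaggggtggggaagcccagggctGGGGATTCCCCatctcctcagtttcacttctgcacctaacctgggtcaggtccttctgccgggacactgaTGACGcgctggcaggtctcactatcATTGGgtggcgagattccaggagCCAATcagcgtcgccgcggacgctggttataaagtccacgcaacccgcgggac
B2m, chr2:122147437-122147686 (plus strand): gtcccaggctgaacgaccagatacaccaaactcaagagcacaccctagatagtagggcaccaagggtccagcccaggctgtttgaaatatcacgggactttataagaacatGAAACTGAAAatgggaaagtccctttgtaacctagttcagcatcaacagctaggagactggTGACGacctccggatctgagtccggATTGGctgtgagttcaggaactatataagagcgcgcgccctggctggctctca
Tap1, chr17:34187306-34187555 (plus strand): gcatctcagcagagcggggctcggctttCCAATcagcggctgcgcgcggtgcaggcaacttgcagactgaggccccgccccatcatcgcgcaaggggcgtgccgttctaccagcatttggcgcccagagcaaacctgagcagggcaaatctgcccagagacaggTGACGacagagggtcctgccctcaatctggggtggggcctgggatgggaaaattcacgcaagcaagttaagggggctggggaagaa
Psmb8, chr17:34197945-34198194 (plus strand): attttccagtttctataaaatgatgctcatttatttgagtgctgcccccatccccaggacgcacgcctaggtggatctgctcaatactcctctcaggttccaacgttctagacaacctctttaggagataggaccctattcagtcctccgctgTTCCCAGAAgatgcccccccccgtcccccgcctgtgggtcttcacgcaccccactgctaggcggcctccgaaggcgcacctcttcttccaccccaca
The search covered both strands of windows from 250 bases before to 50 bases after each start, and its shares refer to all 32851 such windows. Those of the genes described here are included, and H2-K1 has 2 overlapping windows that hold the same matches. GGGGA directly followed by TTCCCC, the kappa B site of the class I enhancer, was found in 10 windows (0.0304%), and both H2-K1 and H2-D1 hold it. TGACG, the core of the X2 box, was in 20.8% of windows and in 5 of the 7 genes, namely H2-K1, H2-D1, B2m, Tap1 and Psmb9. ATTGG, the Y box (CCAAT on the other strand), was in 37.4% of windows and in 6 of the 7, Psmb8 being without it.

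In H2-K1, H2-D1 and B2m, TGACG and ATTGG start 25 bases apart on the same strand. That spacing, chosen after the offsets were seen, occurred in 31 windows (0.0944%). GAAA, any 2 bases and GAAA again, the core of the interferon-stimulated response element, was in 3.44% of windows and among these genes only in B2m. TTCNNNGAA, the gamma-activated site, was in 8.30% of windows and among these genes only in Psmb8. Tap1 and Psmb9 are read in opposite directions from starts 226 bases apart, so their windows overlap. The TGACG and the ATTGG counted for these genes are the same letters, read from opposite strands. A match describes letters only, and a missing match says nothing about a factor.

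The files held 8939 barcodes for sham, 10643 for TBI+PBS and 14222 for TBI+IL-25, against 8000 cells expected per library, with 39536447, 58148289 and 61372408 UMIs (unique molecular identifiers, each counting 1 captured transcript). After removal of low-quality barcodes and of cells scored as doublets, 8710, 10299 and 13532 cells were kept, at median depths of 4111, 4666 and 3841 UMIs. Between 24 and 39 barcode sequences were shared by each pair of libraries. The TBI+IL-25 library stood apart: it was made with Cell Ranger 7.2.0 rather than 7.1.0, 0.803% of its UMIs came from 2 listed ribosomal RNA genes against 0.0369% and 0.0450% in sham and TBI+PBS, and median mitochondrial shares were 2.14% against 1.17% and 1.51%. These features cannot be told apart from IL-25 treatment in any comparison with that library.

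Cells fell into 29 clusters built without the class I genes, and 28 were named from marker genes as microglia-like, astrocyte-like, oligodendrocyte-like, neuroblast-like, endothelial-like or 7 smaller classes. One cluster of 39 cells led by Vtn, Rgs5 and Acta2 stayed unnamed. In sham, TBI+PBS and TBI+IL-25 there were 4998, 4589 and 5530 microglia-like cells, and astrocyte-like cells 3285, 4523 and 6687. The rarer classes were uneven, with 45, 217 and 643 oligodendrocyte-like cells, 250, 260 and 140 neuroblast-like cells, and 37, 227 and 49 endothelial-like cells. Levels are in CPM, that is, gene UMIs for every 1000000 UMIs of the class in that library, with exact Poisson 95% intervals. Ratios between libraries carry exact conditional 95% intervals. Both cover counting error only, and differences between animals or preparations are not in them. Because a 3' count depends on capture as well as on length, levels are compared between cells and libraries, not between genes. Class I heavy chain genes resemble each other. For H2-K1, H2-D1 and B2m, the last 500 bases of the longest protein-coding transcript were each read as 401 windows of 100 bases. None of these windows occurred in another gene of the GENCODE transcripts for GRCm38, the older build. GRCm39, named in the processing notes, was not searched. The H2-Q and H2-T chains named later were not checked in this way, and their counts are less certain.

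The heavy chains bind the peptide and are what T cell receptors read, and their levels differed widely between cell types. H2-K1 in the sham library stood at 852 CPM (701 to 1026) in endothelial-like cells, 506 CPM (497 to 517) in microglia-like cells and 184 CPM (177 to 191) in astrocyte-like cells. Choroid plexus-like cells had 95 CPM (69.0 to 128), oligodendrocyte-like cells 52.2 CPM (33.4 to 77.6) and neuroblast-like cells 30.9 CPM (23.6 to 39.6). The order from endothelial-like through microglia-like and astrocyte-like to choroid plexus-like cells was set by intervals that did not overlap. The oligodendrocyte-like interval overlapped those of both its neighbours. H2-D1 had the same leading pair in sham, endothelial-like cells at 914 CPM (757 to 1093) and microglia-like cells at 415 CPM (406 to 424), but its level in astrocyte-like cells, 35.1 CPM (32.2 to 38.3), overlapped that in neuroblast-like cells, 35.9 CPM (28.1 to 45.3).

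T cell-like, B cell-like and monocyte/macrophage-like cells, scarce in sham, had the highest H2-K1 levels in both injured libraries. Among classes of at least 20 cells, H2-K1 in the TBI+PBS library was 3068 CPM in T cell-like cells, 1401 CPM in B cell-like cells, 1235 CPM in monocyte/macrophage-like cells and 761 CPM in endothelial-like cells. Below these came 630 CPM in microglia-like, 382 CPM in ependymal-like, 367 CPM in fibroblast-like, 218 CPM in astrocyte-like, 134 CPM in choroid plexus-like, 55.5 CPM in oligodendrocyte-like and 47.5 CPM in neuroblast-like cells. Intervals of neighbours overlapped for the B cell-like and monocyte/macrophage-like pair, the ependymal-like and fibroblast-like pair, and the last pair. In TBI+IL-25 the order began with T cell-like cells at 2908 CPM, B cell-like cells at 2671 CPM, monocyte/macrophage-like cells at 1831 CPM and endothelial-like cells at 1466 CPM. Neutrophil-like cells, which reached 20 cells in that library alone, followed at 1078 CPM, below the endothelial-like cells with intervals that did not overlap. The oligodendrocyte-like and neuroblast-like cells were lowest in all 3 libraries.

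**Figure D1:**
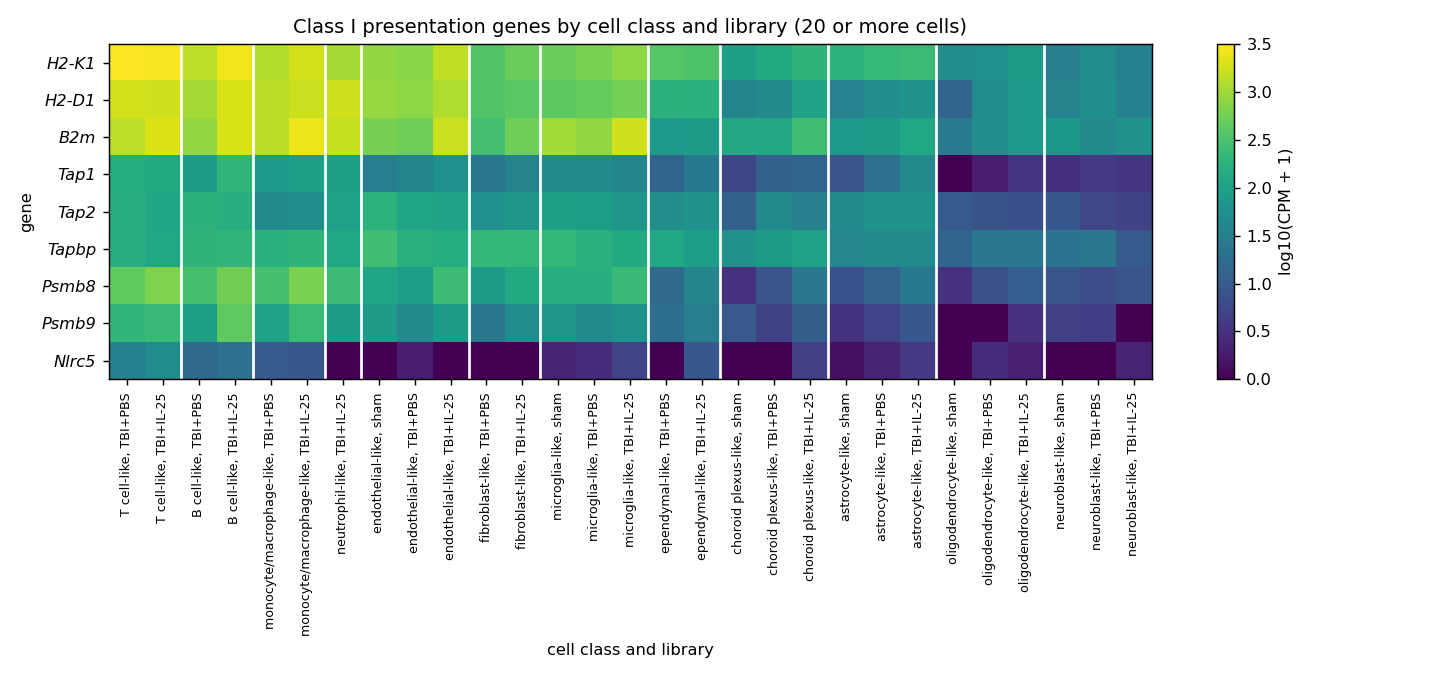
Heatmap of log10(CPM + 1) for the 9 genes (rows) in each class and library with at least 20 cells (columns, white lines between classes); darker colours are lower. For H2-K1 the T cell-like, B cell-like and monocyte/macrophage-like columns of TBI+PBS (1235 to 3068 CPM) are brighter than every other column of that library, and the oligodendrocyte-like and neuroblast-like columns are darkest.

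Free RNA in the droplets could add counts to any class, so the amount of microglia RNA in each class was read from 4 microglia markers (P2ry12, Tmem119, Cx3cr1 and Csf1r), all of which had UMIs in every class examined. In astrocyte-like cells their summed level was 392, 227 and 136 CPM in sham, TBI+PBS and TBI+IL-25, or 3.02%, 2.90% and 1.96% of the level in microglia-like cells of the same library. H2-K1 in astrocyte-like cells reached 36.3%, 34.6% and 30.8% of its microglia-like level, above the markers' share in every library. Tap2 was above it too, at 48.2%, 66.9% and 84.2%. Psmb9 in the sham astrocyte-like cells, at 3.19% of the microglia-like level, lay close to the markers' share, and Psmb8 stood at 4.24%. In TBI+IL-25 the same shares were 12.5% and 10.5%.

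In neuroblast-like cells the markers stood at 4.82%, 4.16% and 1.91% of the microglia-like level. B2m there, at 7.04%, 5.03% and 3.44%, and Psmb8, at 4.89%, 3.60% and 3.12%, lay close to the markers' share, so these low values cannot be told apart from free RNA. Oligodendrocyte-like cells had marker levels of 1.44%, 3.85% and 3.24%, against 10.3%, 8.81% and 10.6% for H2-K1 and 2.56%, 5.98% and 4.43% for B2m. In endothelial-like cells the markers were higher, at 13.4%, 8.20% and 13%, while H2-K1 exceeded the microglia-like level itself, at 168%, 121% and 185%.

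**Figure D2:**
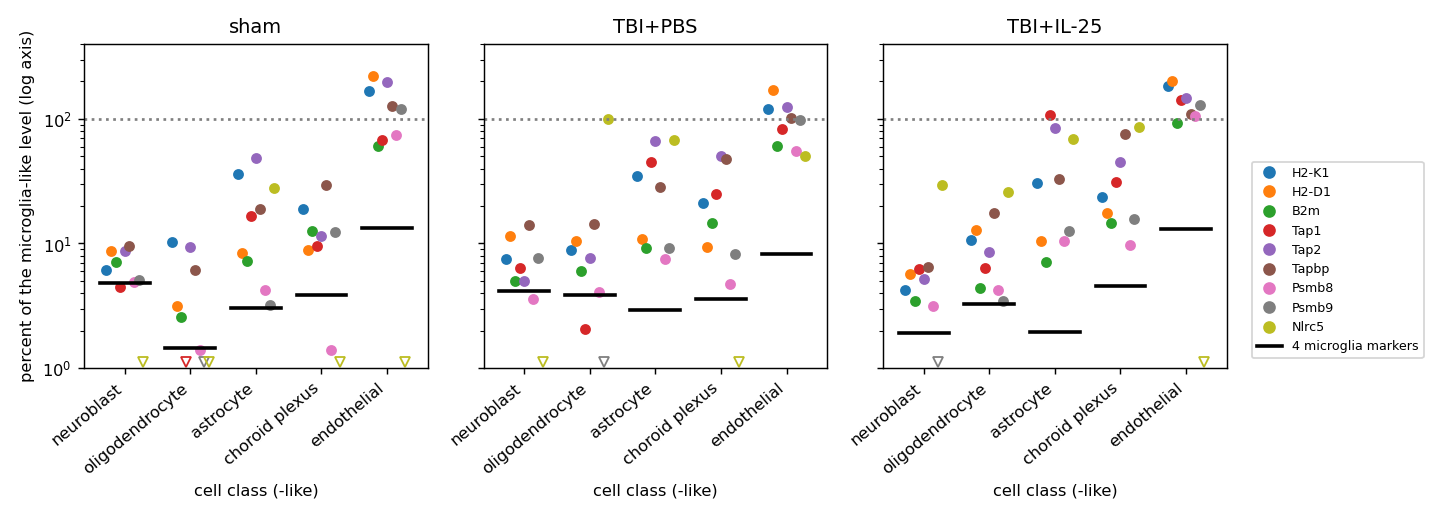
Level of each gene in 5 classes (1 panel per library) as a percentage of its level in microglia-like cells of the same library (log scale), beside the same percentage for the 4 microglia markers (black bar), which measures microglia RNA in the class. Open triangles at the lower edge mark genes with 0 UMIs, the dotted line is 100%, and Tap1 in astrocyte-like cells runs from 16.5% in sham to 108% in TBI+IL-25.

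Microglia-like cells, the brain's resident macrophages, held 92.5%, 76.9% and 88.8% of all B2m UMIs in sham, TBI+PBS and TBI+IL-25. Within them the set divided: heavy chains, B2m and Psmb8 were highest in TBI+IL-25, while Tap2 and Tapbp were lowest there. H2-K1 was 506 CPM (497 to 517) in sham, 630 CPM (620 to 640) in TBI+PBS and 791 CPM (781 to 801) in TBI+IL-25. The ratio was 1.24 (1.21 to 1.28) for TBI+PBS to sham and 1.56 (1.53 to 1.60) for TBI+IL-25 to sham. H2-D1 ran in parallel, at 415, 469 and 587 CPM. For neither heavy chain did the intervals of any pair of libraries overlap.

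B2m, the light chain shared by all class I molecules, did not follow the heavy chains after injury alone. Its level was 1021 CPM (1007 to 1035) in sham, 867 CPM (856 to 879) in TBI+PBS and 1758 CPM (1743 to 1774) in TBI+IL-25. Thus it was lower than sham in TBI+PBS, at a ratio of 0.850 (0.833 to 0.866), and higher in TBI+IL-25, at 1.72 (1.69 to 1.75). Between the injured libraries the ratio was 2.03 (2.00 to 2.06). B2m was detected in 88.5%, 90.8% and 97.6% of microglia-like cells, and in 58.8%, 53.6% and 79.0% once each cell was thinned to 1000 UMIs. The thinned shares keep the order of the CPM, and the order of the first pair of unthinned shares does not.

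As CPM, the peptide transporter and tapasin were not higher after injury in microglia-like cells. Tap1 had 45.2 CPM (42.3 to 48.3), 44.4 CPM (41.9 to 47.1) and 39.9 CPM (37.6 to 42.3) in sham, TBI+PBS and TBI+IL-25. Tap2 had 93.5, 90.8 and 71.1 CPM, a TBI+IL-25 to sham ratio of 0.760 (0.713 to 0.810). Tapbp, which tethers heavy chains to the transporter, had 212 CPM (206 to 219), 165 CPM (160 to 170) and 134 CPM (129 to 138), with ratios to sham of 0.779 (0.746 to 0.814) and 0.630 (0.603 to 0.659). Tapbp was therefore lower in both injured libraries, while the Tap1 intervals of sham and TBI+PBS overlapped.

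The inducible proteasome subunits did not keep together. Psmb8, the chymotrypsin-like subunit of the immunoproteasome, had 155 CPM (150 to 161) in sham, 157 CPM (152 to 162) in TBI+PBS and 238 CPM (232 to 243) in TBI+IL-25. Psmb9, the caspase-like site's replacement, had 70.2 CPM (66.5 to 74.0), 44.5 CPM (41.9 to 47.2) and 62.4 CPM (59.5 to 65.4), so it was lowest in TBI+PBS, at a ratio to sham of 0.634 (0.586 to 0.687). Nlrc5 was near the floor of detection, with 24, 46 and 117 UMIs or 1.22, 1.83 and 4.19 CPM. Its ratio was 1.5 (0.895 to 2.56) for TBI+PBS and 3.42 (2.19 to 5.56) for TBI+IL-25, against sham.

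Counted at a threshold of 2-fold higher among genes with at least 20 UMIs over both libraries, microglia-like cells gave 0 of 9 in TBI+PBS against sham (6.92% of all 14967 measured genes passed), 1 of 9 in TBI+IL-25 against sham (11.9%) and 2 of 9 in TBI+IL-25 against TBI+PBS (6.41%). The genes were Nlrc5 in the second comparison and B2m and Nlrc5 in the third. None of the 9 was 2-fold lower, beside 7.80%, 15.3% and 4.69% of all measured genes. Counts of 0 to 2 among 9 genes are small, and nothing is read from them against these shares. The median log2 ratio of the 9 was -0.02, 0.50 and 0.33 in that order, beside -0.16, -0.20 and -0.06 over all measured genes. No pair of the 3 comparisons is independent, because each library serves in 2 of them.

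CPM values depend on what else a class transcribes. The median gene's log2 ratio was -0.17 for TBI+PBS and -0.24 for TBI+IL-25 against sham in microglia-like cells, and -0.08 and -0.30 in astrocyte-like cells, so scaling by it raises every ratio. On that scale the microglia-like TBI+IL-25 to sham ratio turned from 0.882 to 1.04 for Tap1 and from 0.890 to 1.05 for Psmb9, while Tapbp stayed below 1 at 0.742 and the TBI+PBS ratio of B2m at 0.956. The microglia-like TBI+PBS to sham ratio went from 0.983 to 1.11 for Tap1 and from 0.971 to 1.09 for Tap2. That the transporter was not higher in TBI+PBS thus holds for CPM only.

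Microglia-like cells lay largely in different clusters in each library. Cluster 1 had 56.8% of the sham cells and cluster 0 had 45.8% of the TBI+PBS cells. Cluster 4, led by Ccl4, Ccl3, Ccl12 and Tnf, had 39.2% of the TBI+IL-25 cells. The B2m difference between the injured libraries was present within clusters of at least 50 cells in both libraries, with ratios of 1.67 to 2.27 and intervals above 1 in 8 of 8. In cluster 0 alone B2m stood at 1184 CPM in sham, 910 CPM in TBI+PBS and 1840 CPM in TBI+IL-25, and in cluster 4 at 1215, 709 and 1609 CPM, the sham value there resting on 20 cells. Psmb8 was above sham in TBI+IL-25 in 5 of 5 clusters (1.45 to 2.96). Tapbp was below sham in TBI+IL-25 in 4 of 5 clusters (0.430 to 0.925).

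H2-K1 was less uniform. In cluster 0 it was 700 CPM (664 to 737), 702 CPM (687 to 718) and 738 CPM (721 to 756), whereas in cluster 1 it was 470 CPM (458 to 483), 654 CPM (622 to 687) and 626 CPM (546 to 715). Of 5 clusters with at least 50 cells in both libraries, the H2-K1 ratio of TBI+PBS to sham was above 1 in cluster 1 at 1.39 (1.31 to 1.47), cluster 6 at 1.36 (1.27 to 1.45) and cluster 15 at 1.49 (1.29 to 1.72). It was 1.00 (0.948 to 1.06) in cluster 0 and below 1 in cluster 11, at 0.669 (0.551 to 0.819). The class-wide ratio of 1.24 thus did not hold in every cluster. Cluster 15 was led by Cxcl10, Ccl12, Ccl4, Ifi204, Ccl3, C1qa and Ifit1 in that order, known interferon-inducible genes among them. It had the highest Tap1 of any microglia-like cluster: 121 CPM (91.3 to 156) in sham, 152 CPM (116 to 194) in TBI+PBS and 80.3 CPM (67.0 to 95.4) in TBI+IL-25. The other microglia-like clusters had 15.7 to 60.3 CPM. Cluster 15 numbered 103, 81 and 319 cells, and leaving it out changed the class-wide B2m ratios little, to 0.848, 1.70 and 2.00.

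**Figure D3:**
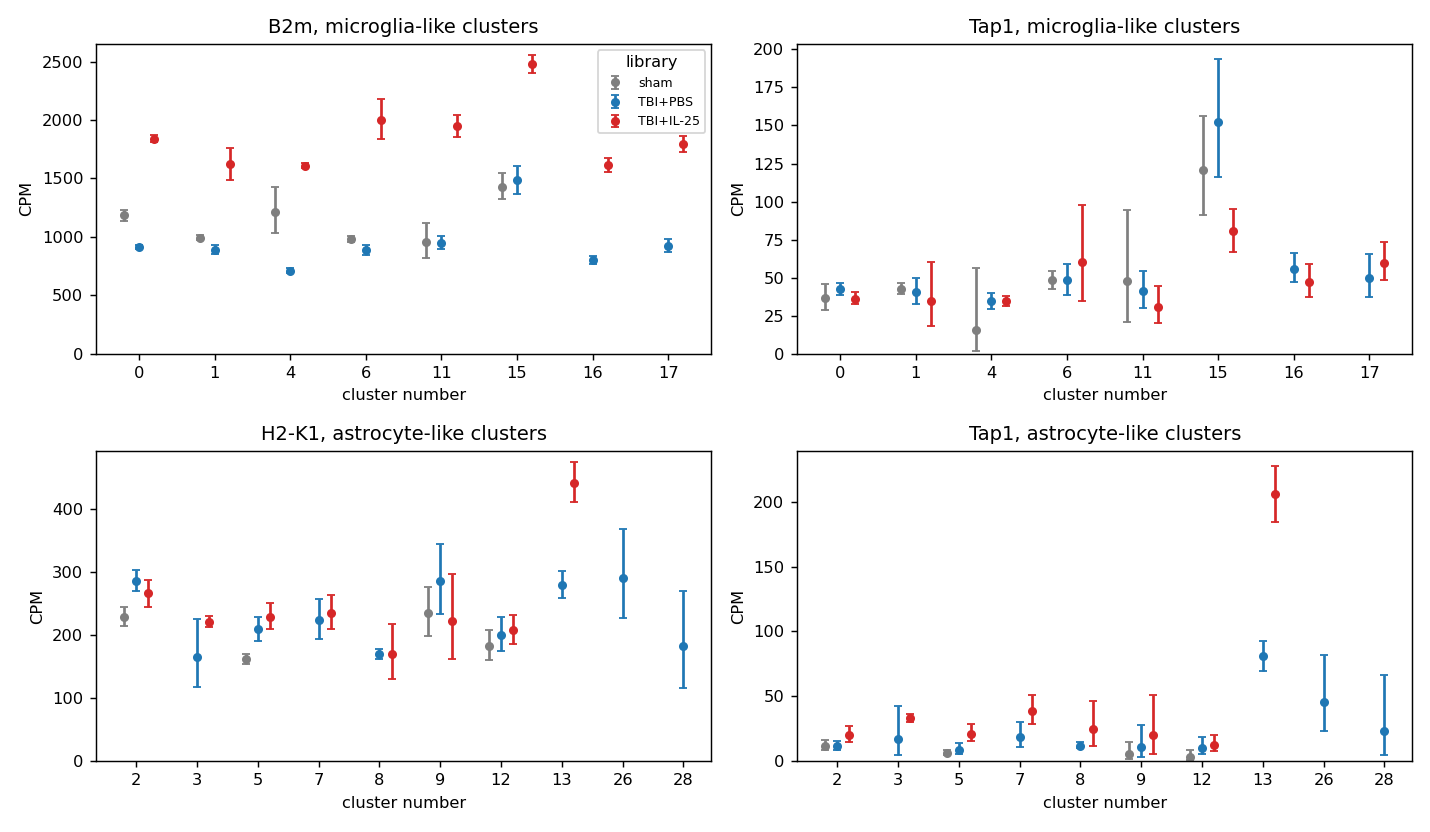
Levels (CPM) of B2m and Tap1 in microglia-like clusters and of H2-K1 and Tap1 in astrocyte-like clusters, by cluster number, 1 point per library with at least 20 cells, with 95% counting intervals. B2m is higher in TBI+IL-25 than in TBI+PBS in all 8 microglia-like clusters compared, and astrocyte-like cluster 13 has the highest Tap1.

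Astrocytes support neurons and form scars after injury, and they start from far lower class I levels than microglia. In astrocyte-like cells Tap1, the immunoproteasome subunits and Nlrc5 had the largest ratios to sham of the 9 genes. Tap1 had 110, 419 and 938 UMIs in sham, TBI+PBS and TBI+IL-25, or 7.46 CPM (6.13 to 8.99), 20 CPM (18.1 to 22) and 43.2 CPM (40.5 to 46.1). The 3 intervals were well apart, with ratios to sham of 2.68 (2.17 to 3.34) and 5.79 (4.75 to 7.13), and of 2.16 (1.92 to 2.43) between the injured libraries. The share of astrocyte-like cells with a Tap1 UMI was 3.32%, 6.81% and 10.3%, at median depths of 4511, 4328 and 2957 UMIs, and 0.704%, 1.81% and 4.31% after thinning to 1000 UMIs. For comparison, Tap1 was seen in 1.60%, 1.15% and 1.43% of neuroblast-like cells, at 6428, 5277 and 4688 UMIs.

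In TBI+IL-25 the astrocyte-like level of Tap1 overlapped that of microglia-like cells, 39.9 CPM (37.6 to 42.3), whereas in sham it was 16.5% of the microglia-like level. Astrocyte-like cells accordingly supplied 10.8%, 22.7% and 42.3% of all Tap1 UMIs of the 3 libraries. No other gene of the set came so close, the next being Tap2 at 84.2% and Nlrc5 at 69.3% of the microglia-like level in TBI+IL-25. Tap2 itself had 45.1, 60.7 and 59.8 CPM in astrocyte-like cells, so its ratio between the injured libraries was 0.986. Over the class as a whole the paired subunits of the transporter thus differed. The ratio between the injured libraries had its interval above 1 for Tap1 and across 1 for Tap2, 0.912 to 1.07. Within clusters the contrast was smaller: the Tap2 interval was above 1 in 3 of 6 compared (0.855 to 1.45), and the Tap1 interval in 4 of 6 (1.22 to 2.55). Scaling by the median gene put the class-wide Tap2 ratio at 1.13 and that of Tap1 at 2.48.

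Psmb8 in astrocyte-like cells had 6.58 CPM (5.33 to 8.02), 11.8 CPM (10.4 to 13.4) and 25 CPM (23 to 27.2), giving ratios to sham of 1.79 (1.41 to 2.29) and 3.80 (3.06 to 4.77). Psmb9 had 33, 85 and 169 UMIs, or 2.24, 4.06 and 7.79 CPM, with ratios of 1.81 (1.20 to 2.80) and 3.48 (2.39 to 5.22). Nlrc5 had 5, 26 and 63 UMIs, with ratios of 3.66 (1.38 to 12.2) and 8.56 (3.48 to 27.3), wide because of the 5 UMIs in sham. All 3 genes were ordered sham, TBI+PBS, TBI+IL-25.

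The heavy chains, B2m and Tapbp had smaller ratios to sham in astrocyte-like cells. H2-K1 had 184, 218 and 243 CPM, and H2-D1 35.1 CPM (32.2 to 38.3), 51.3 CPM (48.3 to 54.5) and 60.9 CPM (57.7 to 64.3). B2m had 73.7 CPM (69.4 to 78.2), 80.5 CPM (76.7 to 84.4) and 124 CPM (119 to 129), close to sham in TBI+PBS at a ratio of 1.09 (1.01 to 1.18) and at 1.68 (1.57 to 1.81) in TBI+IL-25. Tapbp had 40.3, 46.7 and 44.3 CPM, with ratios of 1.16 (1.04 to 1.28) and 1.10 (0.990 to 1.22).

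**Figure D4:**
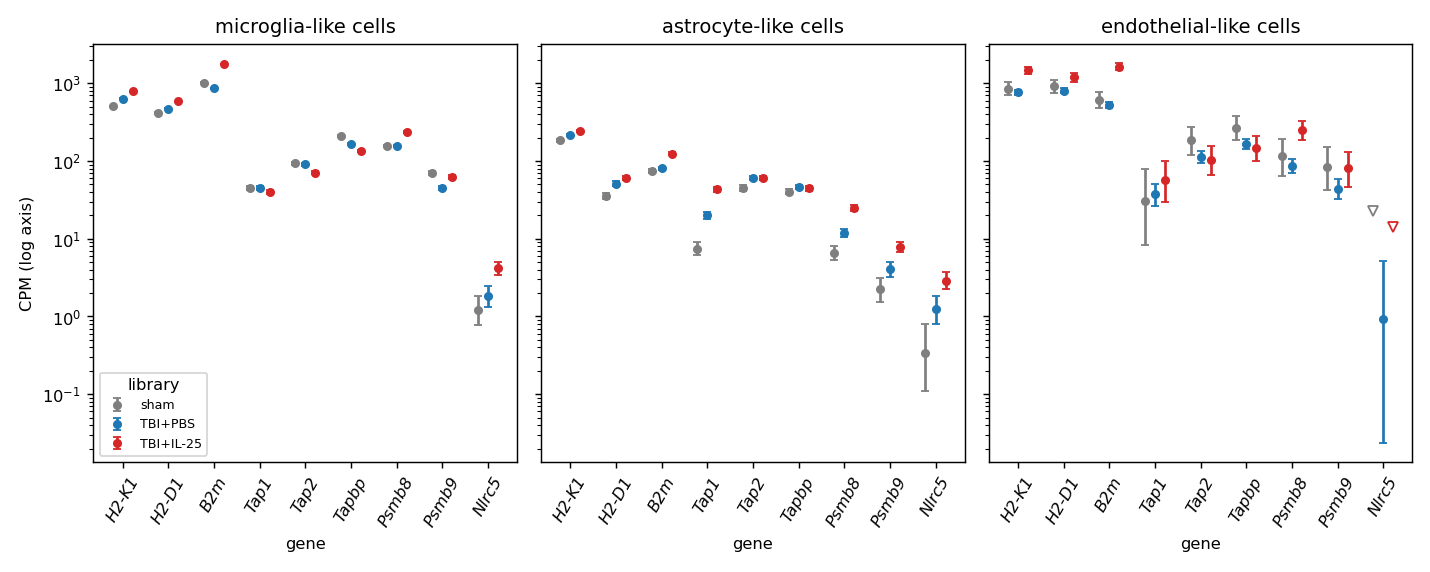
Levels (CPM, log scale) of the 9 genes in 3 classes, 1 point per library with 95% counting intervals; open triangles give the limit that 3 counts would set where 0 UMIs were found. Tap1 in astrocyte-like cells steps from 7.46 to 20 and 43.2 CPM while in microglia-like cells it stays between 39.9 and 45.2 CPM.

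At 2-fold higher, astrocyte-like cells gave 2 of 9 genes in TBI+PBS against sham (7.26% of all measured genes), namely Tap1 and Nlrc5. They gave 4 of 9 in TBI+IL-25 against sham (12.2%), with Psmb8 and Psmb9 added, and 3 of 9 in TBI+IL-25 against TBI+PBS (5.04%), which were Tap1, Psmb8 and Nlrc5. None was 2-fold lower in any of the 3, beside 6.20%, 23.1% and 11.9% of all measured genes. The median log2 ratio of the 9 genes was 0.55, 0.79 and 0.62, beside -0.06, -0.28 and -0.21 over all measured genes. Intervals lay above 1 for 9 of 9 genes in TBI+PBS against sham, beside 25.7% of all measured genes, and for 8 of 9 in TBI+IL-25 against sham, beside 27.9%.

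Tap1, Tapbp, H2-D1 and Nlrc5 were highest in the same astrocyte-like cluster in both injured libraries. Cluster 13, with 1 cell from sham, 303 from TBI+PBS and 366 from TBI+IL-25, was led by Ptx3, Tm4sf1, Lcn2, Serpina3n, Chil1 and Cxcl10. Lcn2 and Serpina3n are known markers of reactive astrocytes. Tap1 in cluster 13 was 80.7 CPM (69.8 to 92.9) in TBI+PBS and 206 CPM (185 to 228) in TBI+IL-25. The astrocyte-like clusters present in all libraries were lower, for example cluster 2 at 11.8, 11.5 and 20.1 CPM and cluster 5 at 6.29, 8.68 and 20.9 CPM. In cluster 13 Psmb8 was 35.6 CPM (28.5 to 44.0) and 95.3 CPM (81.5 to 111), Psmb9 14.5 and 35.5 CPM, and Nlrc5 5.79 and 14.1 CPM, in TBI+PBS and TBI+IL-25. H2-K1 there was 280 and 442 CPM, H2-D1 121 and 200 CPM, and B2m 132 and 309 CPM. In TBI+PBS other clusters matched or passed it for several of these genes: cluster 7 had Psmb8 at 50.2 CPM (36.5 to 67.4), Psmb9 at 16.0 CPM and B2m at 159 CPM (133 to 187), and cluster 2 had H2-K1 at 286 CPM. These intervals overlapped those of cluster 13. The microglia markers in cluster 13 stood at 4.45% and 4.39% of the microglia-like level, against 2.90% and 1.96% in astrocyte-like cells as a whole, and their part in these values was not tested.

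Without cluster 13, an alternative added after the data were seen, the TBI+PBS comparison with sham had no gene at 2-fold among 8 measured: Tap1 went to 1.64, Psmb8 to 1.32 and B2m to 1.00. In TBI+IL-25 against sham the 4 genes at 2-fold still passed with smaller ratios: Tap1 went from 5.79 to 3.89, Psmb8 from 3.80 to 2.85, Psmb9 from 3.48 to 2.38 and Nlrc5 from 8.56 to 5.62. Within clusters 2 and 5, the Tap1 ratio of TBI+PBS to sham was 0.974 and 1.38 with both intervals across 1. Against sham, TBI+IL-25 had Tap1 intervals above 1 in 3 of 3 clusters compared (1.70 to 3.92). The main clusters of the class also differed: cluster 5 had 45.0% of the sham cells, cluster 8 had 27.6% of those from TBI+PBS, and cluster 3 had 41.5% of those from TBI+IL-25. Cluster 3, with 2772 cells in TBI+IL-25, had Tap1 at 32.9 CPM (29.8 to 36.3) there.

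Endothelial-like cells, which line vessels and present antigen to passing T cells, rested on 37 cells in sham and 49 in TBI+IL-25. H2-K1 had 852 CPM (701 to 1026), 761 CPM (710 to 815) and 1466 CPM (1307 to 1638), and H2-D1 had 914, 802 and 1192 CPM. B2m had 614 CPM (487 to 764), 525 CPM (482 to 570) and 1641 CPM (1473 to 1823). All 3 genes were highest in TBI+IL-25, with B2m at 2.67 (2.09 to 3.45) times sham and 3.13 (2.73 to 3.58) times TBI+PBS, while their intervals for TBI+PBS against sham crossed 1.

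Psmb8 in endothelial-like cells had 15, 94 and 53 UMIs, or 115 CPM (64.5 to 190), 87.4 CPM (70.7 to 107) and 251 CPM (188 to 328). Tapbp was lower in both injured libraries, at 269 CPM (187 to 374), 167 CPM (144 to 194) and 147 CPM (99.6 to 208), as it was in microglia-like cells. Tap2 had 184, 113 and 104 CPM. Tap1 rested on 4, 40 and 12 UMIs, at 30.7, 37.2 and 56.7 CPM, with overlapping intervals, and Nlrc5 on 0, 1 and 0.

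At 2-fold higher the endothelial-like counts were 0 of 8 in TBI+PBS against sham (11.2% of measured genes), 2 of 7 in TBI+IL-25 against sham (12.3%) and 2 of 8 in TBI+IL-25 against TBI+PBS (5.75%), B2m and Psmb8 in both. None was 2-fold lower, beside 5.85%, 9.88% and 11.6% of measured genes. Since microglia markers were higher here than in astrocyte-like, oligodendrocyte-like or neuroblast-like cells, the 4, 14 and 6 cells with 10 or more UMIs of the 4 markers were left out as an added alternative. B2m was then 3.08 times sham and 3.57 times TBI+PBS in TBI+IL-25, and Psmb8 1.98 times sham, just under the threshold.

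Oligodendrocyte-like cells, the myelin-forming glia, had few counts in sham. H2-K1 had 24, 121 and 233 UMIs in the 3 libraries, or 52.2 CPM (33.4 to 77.6), 55.5 CPM (46.1 to 66.4) and 83.6 CPM (73.2 to 95). H2-D1 had 6 UMIs in sham, at 13 CPM (4.79 to 28.4), against 49.1 CPM (40.2 to 59.3) in TBI+PBS and 75.0 CPM (65.2 to 85.9) in TBI+IL-25, ratios of 3.77 (1.67 to 10.5) and 5.75 (2.60 to 15.8). B2m had 26.1, 51.9 and 77.8 CPM, with ratios of 1.99 (1.09 to 3.96) and 2.98 (1.67 to 5.87). The heavy chain H2-D1 and B2m were both lowest in sham, where microglia markers in this class were also lowest. With free RNA subtracted, the TBI+PBS to sham ratio of B2m went to 0.958 and its TBI+IL-25 to sham ratio to 1.49, while H2-D1 had 3.43 and 7.98. The TBI+PBS to sham ratio of H2-K1 went to 0.408, and of the 3 genes at 2-fold in TBI+IL-25 against sham H2-D1 alone passed.

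The peptide supply genes were barely seen in oligodendrocyte-like cells. Tap1 had 0, 2 and 7 UMIs, at most 2.51 CPM (1.01 to 5.17), Psmb9 had 0, 0 and 6, and Nlrc5 had 0, 4 and 3. Psmb8 had 1, 14 and 28 UMIs, so its ratio of TBI+IL-25 to sham, 4.62, had an interval of 0.764 to 189. Counts at 2-fold were 1 of 4 in TBI+PBS against sham (9.80% of measured genes; H2-D1), 3 of 6 in TBI+IL-25 against sham (14.9%; H2-D1, B2m and Psmb8) and 0 of 6 between the injured libraries (6.23%). None was 2-fold lower, beside 2.80%, 8.47% and 7.65%.

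Neuroblast-like cells, migrating immature neurons that express Dcx and Sox11, had low values with no common direction. H2-K1 had 30.9 CPM (23.6 to 39.6), 47.5 CPM (37.9 to 58.9) and 33.4 CPM (22 to 48.5), and H2-D1 35.9, 53.8 and 33.4 CPM. Both heavy chains were therefore somewhat higher in TBI+PBS, at ratios to sham of 1.54 (1.09 to 2.18) and 1.5 (1.09 to 2.07). B2m was lower there, 43.6 CPM (34.4 to 54.5) against 71.8 CPM (60.5 to 84.7) in sham, and 60.5 CPM (44.8 to 80.0) in TBI+IL-25. The microglia markers in this class also fell, from 626 CPM in sham to 325 CPM in TBI+PBS and 132 CPM in TBI+IL-25. H2-K1 stood at 6.09%, 7.55% and 4.22% of its microglia-like level, beside 4.82%, 4.16% and 1.91% for the markers. What free RNA added to these differences was not tested. H2-K1 was found in 14.8%, 16.9% and 12.9% of neuroblast-like cells, and after thinning in 0.420%, 2.02% and 3.79%. The 3 thinned shares do not follow the CPM, and no order is read from them.

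No gene was 2-fold higher in neuroblast-like cells in any comparison, of 6, 5 and 4 measured (2.10%, 3.05% and 2.75% of all measured genes). Tapbp was 2-fold lower in TBI+IL-25 against sham and against TBI+PBS (7.80% and 7.09%), and no gene was in TBI+PBS against sham (1.61%). It had 40, 41 and 7 UMIs in sham, TBI+PBS and TBI+IL-25, or 20.2, 23.2 and 8.65 CPM. Tap1 had 4, 5 and 2 UMIs, Psmb9 had 7, 6 and 0, and Nlrc5 had 0, 0 and 1. For Nlrc5 in sham, 0 UMIs in 250 cells allows a share of cells with a UMI of up to 1.20%.

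Monocyte/macrophage-like cells (248 with vehicle and 108 with IL-25) and T cell-like cells (65 and 92) were compared between the injured libraries only, since sham had 10 and 14. Monocyte/macrophage-like cells had B2m at 1365 CPM (1319 to 1411) and 2561 CPM (2437 to 2690), and Psmb9 at 99.1 CPM (87.2 to 112) and 242 CPM (204 to 283). Psmb8 and Psmb9 passed 2-fold there (2 of 9; 4.75% of measured genes), and none was 2-fold lower (9.29%). T cell-like cells had B2m at 1438 CPM (1304 to 1581) and 2077 CPM (1916 to 2249), but H2-K1 at 3068 and 2908 CPM with overlapping intervals, and none of their 9 genes passed 2-fold higher (5.81%) or lower (8.39%). Nlrc5, which is known for its part in lymphocyte class I levels, had 10 and 14 UMIs in T cell-like cells, at 33.9 CPM (16.3 to 62.4) and 47.7 CPM (26.1 to 80.0).

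Choroid plexus-like cells, the epithelium that makes cerebrospinal fluid, numbered 44, 68 and 117. H2-D1 had 36.7 CPM (21.4 to 58.8), 44.1 CPM (28.3 to 65.7) and 103 CPM (85.0 to 124), and B2m 127, 127 and 257 CPM. The intervals of sham and TBI+PBS overlapped, and those of TBI+IL-25 lay above both. Tap2 instead had 10.8 CPM (3.5 to 25.2), 46.0 CPM (29.8 to 67.9) and 32.2 CPM (22.6 to 44.6). Counts at 2-fold were 1 of 5 in TBI+PBS against sham (4.19%), 4 of 6 in TBI+IL-25 against sham (8.74%) and 3 of 7 between the injured libraries (6.42%). The genes were Tap2 in the first, H2-D1, B2m, Tap2 and Psmb8 in the second, and H2-D1, B2m and Psmb8 in the third. Psmb8 had 1, 4 and 26 UMIs and counted as measured only through TBI+IL-25. Its ratio of TBI+IL-25 to sham, 10.8, had an interval of 1.77 to 442, and nothing is read from it. None was 2-fold lower, beside 3.34%, 4.33% and 4.16%.

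The smallest classes were also compared between the injured libraries. Ependymal-like cells (29 and 49) had 1 of 6 genes 2-fold higher, Psmb8 (4.75% of measured genes), and none lower (5.52%). Psmb8 had 15.1 and 38.3 CPM there, and the interval of its ratio crossed 1. Fibroblast-like cells (23 and 25) had 0 of 6 higher (6.49%) and none lower (9.23%). B cell-like cells (23 and 26) had 2 of 7 higher, B2m and Psmb9 (8.79%), and none lower (17.5%). In B cell-like cells Psmb9 rested on 7 and 21 UMIs, a ratio of 4.43 (1.81 to 12.3).

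B2m in TBI+IL-25 thus stood above TBI+PBS in microglia-like, astrocyte-like, endothelial-like, oligodendrocyte-like, monocyte/macrophage-like, T cell-like, B cell-like, fibroblast-like and choroid plexus-like cells, with intervals above 1. In B cell-like cells the ratio was 2.38. The intervals crossed 1 in neuroblast-like cells, 1.39 (0.951 to 2.01), and in ependymal-like cells, 1.09 (0.639 to 1.85). Tapbp had no such excess in the glial classes, with ratios between the injured libraries of 0.809 in microglia-like and 0.948 in astrocyte-like cells. A B2m difference in the same direction in this many classes cannot be told apart from a property of the TBI+IL-25 library. The microglia markers' share of the microglia-like level also rose from TBI+PBS to TBI+IL-25 in several of these classes. It went from 5.36% to 13.1% in fibroblast-like, 6.50% to 12.4% in T cell-like and 8.42% to 12.1% in monocyte/macrophage-like cells. In endothelial-like cells it went from 8.20% to 13%, and in choroid plexus-like cells from 3.60% to 4.52%. It fell in astrocyte-like, oligodendrocyte-like and B cell-like cells. How much of the share in monocyte/macrophage-like and T cell-like cells is their own transcript of the markers was not tested. Endothelial-like cells with fewer than 10 UMIs of the markers had B2m at 3.57 times TBI+PBS in TBI+IL-25. In the other classes with a rise, what free RNA added to B2m was not tested.

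The wider pathway was read from 8 lists of related genes, counting those whose ratio had an interval off 1. At this depth many genes met that rule: in microglia-like cells, TBI+PBS against sham, 24.7% of all measured genes had an interval above 1 and 39.7% below 1, or 33.5% and 27.3% after scaling by the median gene. In microglia-like cells the other immunoproteasome subunit, Psmb10, and the PA28 genes, whose product activates the proteasome, were above sham in TBI+PBS, 3 of 3. Psme2 had a ratio of 1.45 (1.38 to 1.53), Psme1 1.25 (1.19 to 1.30) and Psmb10 1.09 (1.02 to 1.16). The constitutive catalytic subunits were also above sham, 3 of 3, from 1.28 for Psmb5 to 1.56 for Psmb6. Of the loading and trimming genes 5 of 6 were above sham, among them calreticulin (Calr) at 400 and 1108 CPM, a ratio of 2.77 (2.70 to 2.84), and the chaperone Hspa5 at 2.34 (2.30 to 2.38). The remaining one, the tapasin-related editor Tapbpl, was below sham at 0.813 (0.732 to 0.903), and none of the list was below after scaling by the median gene.

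The regulators of class I transcription lay mostly below sham in TBI+PBS microglia-like cells, 8 of 9 with intervals below 1 beside 39.7% of all measured genes, or 6 of 9 beside 27.3% after scaling by the median gene, where Irf8 turned to above 1. Irf1, an interferon-inducible activator of class I genes, had 45.5 CPM in sham, 30.1 CPM in TBI+PBS and 44.6 CPM in TBI+IL-25. Irf1 was thus lowest in TBI+PBS, and of the 9 genes only B2m and Psmb9 were lowest there too. By CPM, H2-K1, H2-D1, Psmb8 and Nlrc5 were lowest in sham, and Tap1, Tap2 and Tapbp in TBI+IL-25. A link between Irf1 and any of these levels was not tested. Of 10 other class I chains, 6 were below sham in TBI+PBS, including H2-T23, the ligand of NKG2A receptors, at 0.539 (0.506 to 0.574). In TBI+IL-25, H2-Q7 was 18.2 CPM against 5.30 CPM in sham, a ratio of 3.43 (2.77 to 4.28), and the lipid-presenting Cd1d1 was 7.2 against 20.7 CPM, a ratio of 0.347 (0.292 to 0.412).

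In astrocyte-like cells 4 of 9 regulators were above sham and 1 below in TBI+PBS, beside 25.7% and 30.9% of all measured genes. In TBI+IL-25, 5 were above and 2 below, beside 27.9% and 48.3%. After scaling by the median gene the counts were 5 and 0, beside 31.3% and 25.2%, and 7 and 2, beside 38.9% and 34.8%. Irf1 had 7.93, 11.2 and 25.4 CPM, ratios to sham of 1.42 (1.13 to 1.78) and 3.20 (2.62 to 3.94), and Rela, a subunit of NF-kappa B, had 20.9, 41.1 and 76.7 CPM. Socs1, a feedback inhibitor of interferon signalling, had 7.05, 33.8 and 50.4 CPM, ratios of 4.80 (3.90 to 5.95) and 7.15 (5.85 to 8.83). Rfx5, part of the X box complex, was below sham in TBI+IL-25 at 0.468 (0.386 to 0.568). Of the loading genes, 3 of 6 were above sham in TBI+PBS and 6 of 6 in TBI+IL-25, such as the trimming enzyme Erap1 at 1.44 and 1.72. H2-Q4, another class I chain, had 18, 73 and 130 UMIs, ratios of 2.86 (1.69 to 5.09) and 4.91 (2.99 to 8.54).

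Endothelial-like cells had too few counts for most lists. Hspa5 was above sham at 1.64 (1.18 to 2.36) in TBI+PBS and 2.16 (1.49 to 3.21) in TBI+IL-25. The interferon-gamma receptor chain Ifngr1 was below sham at 0.487 (0.350 to 0.691) and 0.315 (0.182 to 0.531). Ifngr1 was also below sham in microglia-like cells, with 1205, 886 and 581 CPM. Astrocyte-like cells had 110, 102 and 62.9 CPM, the TBI+PBS value being close to sham. The receptor chain was thus lowest in TBI+IL-25 in all 3 classes. The microglia markers in astrocyte-like cells stood at 3.02%, 2.90% and 1.96% of the microglia-like level. What microglia RNA added to Ifngr1 in astrocyte-like and endothelial-like cells was not tested.

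Among the interferons, Ifnb1, the type I interferon beta, had 14, 44 and 1162 UMIs in microglia-like cells, or 0.713, 1.75 and 41.6 CPM, a TBI+IL-25 to sham ratio of 58.3 (34.6 to 107). Ifng, the type II interferon, was counted in T cell-like cells, with 6 UMIs in TBI+PBS (20.3 CPM) and 31 in TBI+IL-25 (106 CPM), and outside them as 1 UMI in oligodendrocyte-like cells. Cd8a, a chain of the T cell co-receptor for class I, had 36 and 57 UMIs in the same cells, at 122 and 194 CPM.

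Levels of the 9 genes ran together across cell types, Nlrc5 least closely, at a pairwise r of 0.44 to 0.76 with the others. Over 18 units of a class in a library with at least 50 cells each, the mean of the 9 standardised levels, as log2(CPM + 10), correlated with single genes at Pearson's r of 0.99 for H2-K1, 0.97 for Tap1 and Psmb8, 0.96 for B2m and H2-D1, 0.89 for Tapbp and 0.84 for Tap2. Psmb9 and Nlrc5 did not reach 10 CPM in enough units to be compared with the mean. Outside the set, the most alike of 8430 genes were Zc3hav1 and Psmb10 at 0.97 and H2-M3, Irf1 and Vasp at 0.96. The most alike pair was Psmb8 and Psmb9 at 0.99, and the least alike Nlrc5 and Tapbp at 0.44. These are descriptions: units of one library share depth and free RNA, units of one class share cell identity, and the mean contains the genes themselves.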

How the data were processed

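Gene-by-cell tables of UMI counts were deposited by the authors, 1 per library, and per the file headers were made with Cell Ranger 7.1.0 (sham, TBI+PBS) or 7.2.0 (TBI+IL-25). Per the submitters' processing notes, bcl2fastq 5.0.1, Cell Ranger 7.2.0, Seurat 4.4.0 and GRCm39 were used. Barcodes under 500 UMIs, under 300 genes or over 20% mitochondrial UMIs were dropped, and those with a Scrublet doublet score above 0.2 were removed, a threshold set with earlier results known: 211, 301 and 635 cells. Scanpy 1.11.5 (Python 3.11.15) clustered the cells on 2000 variable genes, leaving out the 9 genes and the pathway lists, with 30 principal components, 15 neighbours and Leiden resolution 1. A cluster was named when at least 3 markers of its class were present.

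UMIs were summed per class and library. Intervals were computed with SciPy 1.17.1 (Poisson, Clopper-Pearson or conditional binomial, 95%), and a count of 0 was given a limit of 3 counts. With 1 library per group no test between groups was run. A gene counted as measured had at least 20 UMIs over both libraries, so a gene with few UMIs in one could qualify through the other. All 9 genes are named, and per pathway list up to 3 genes with the largest ratio among those with at least 50 UMIs and an interval off 1. Genes outside that rule are named because they stood alone in a count, or to give a level in another library. One gene each of the microglia marker sum and the regulator list is not reported here. The 9 genes and all lists were chosen with earlier results of these data known. Alternatives covered scaling, cell weighting, doublets, clustering, class definition, free RNA, filters and thresholds, and 3 added after seeing the data left out cluster 13, cluster 15 or endothelial-like cells with microglia UMIs. Motif searches used RefSeq promoters, 250 bases before to 50 after each start.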

Additional observations from a re-analysis of the deposited data

Results flagged for a closer look

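In 6 cases the interval of a ratio lay above 1 in astrocyte-like cells and below 1 in microglia-like cells of the same libraries, 3 of 9 genes in each comparison with sham. Of all genes measured in both classes, 7.50% did so for TBI+PBS and 7.15% for TBI+IL-25. The difference between the classes was not tested in any of them, since each group is 1 library. For TBI+PBS against sham, the astrocyte-like log2 ratio exceeded the microglia-like one by 0.36 for B2m, 0.57 for Tapbp and 1.52 for Psmb9. For TBI+IL-25 against sham it exceeded it by 2.72 for Tap1, 0.80 for Tap2 and 1.97 for Psmb9. Scaling by the median gene put the microglia-like TBI+IL-25 ratios at 1.04 for Tap1 and 1.05 for Psmb9, so these were no longer on opposite sides of 1. The astrocyte-like B2m ratio in TBI+PBS went to 0.938 with doublets kept and to 1.00 without cluster 13.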

How the results depend on the processing

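No paired analysis was possible because each group is 1 library, and for the same reason no replicate could be left out. Of the alternative values for counts of genes at 2-fold, 142 stayed within 1.5 times the count reported and 32 did not; of those for single genes, 913 moved by less than their interval, 127 by more, and 8 turned direction. In microglia-like cells the TBI+IL-25 to sham count of 1 became 2 with median-of-ratios scaling and 4 at a 1.5-fold threshold, and the TBI+IL-25 to TBI+PBS count of 2 became 1 with doublets kept. In astrocyte-like cells the TBI+PBS to sham count of 2 became 4 with cells weighed equally, with the class I genes among the variable genes, with free RNA subtracted or at 1.5-fold, 1 among genes with at least 50 UMIs, and 0 without cluster 13. The TBI+IL-25 to TBI+PBS count of 3 became 5 at 1.5-fold and 0 with the class I genes among the variable genes, where an astrocyte cluster of 1363 cells stayed unnamed and left the class. In endothelial-like cells the TBI+IL-25 to sham count of 2 became 1 at resolution 0.5, with classes from marker scores, or without cells rich in microglia UMIs, and the TBI+IL-25 to TBI+PBS count of 2 became 5 at 1.5-fold. In oligodendrocyte-like cells the TBI+PBS to sham count of 1 became 0 (equal weights), 4 (doublets kept), 2 (marker scores) and 3 (1.5-fold). There the TBI+IL-25 to sham count of 3 became 5 (doublets kept), 1 (free RNA subtracted) and 5 (1.5-fold), and the TBI+IL-25 to TBI+PBS count of 0 became 6 (doublets kept), 1 (marker scores), 2 (free RNA subtracted) and 4 (1.5-fold). In neuroblast-like cells the counts of 0 became 1 (free RNA subtracted) and 1 (1.5-fold) for TBI+PBS to sham, 2 (marker scores) and 1 (free RNA subtracted) for TBI+IL-25 to sham, and 3 and 2 by the same alternatives for TBI+IL-25 to TBI+PBS. Ratios that turned direction were Tap1 at 1.04 and Psmb9 at 1.05 in microglia-like cells (TBI+IL-25 to sham, scaling) and B2m at 0.938 in astrocyte-like cells (TBI+PBS to sham, doublets kept). With the class I genes among the variable genes, astrocyte-like H2-K1 went to 0.957 and H2-D1 to 0.909 (TBI+IL-25 to TBI+PBS). With marker scores, H2-D1 went to 0.929 in endothelial-like cells (TBI+IL-25 to sham) and 1.25 in neuroblast-like cells (TBI+IL-25 to TBI+PBS). With free RNA subtracted, oligodendrocyte-like B2m went to 0.958 (TBI+PBS to sham). Beyond what an alternative's construction shows, the cause was not tested. Few counts limited the sham oligodendrocyte-like and endothelial-like values, those of the smallest classes, and Nlrc5.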

Other observations

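Klrd1, the CD94 chain that pairs with NKG2 receptors for the class I molecule encoded by H2-T23, was counted in microglia-like cells with 391 sham, 30 TBI+PBS and 34 TBI+IL-25 UMIs, or 19.9, 1.19 and 1.22 CPM. Its ratio to sham was 0.0599 (0.0399 to 0.0869) for the vehicle library and 0.0611 (0.0417 to 0.0868) for TBI+IL-25. Pirb, an inhibitory receptor for class I molecules, differed less in the same cells, with 14.6, 12.3 and 11.6 CPM. Both are receptors that read class I rather than parts of the presentation pathway.

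Ifnb1 was also counted in astrocyte-like cells, with 2, 1 and 24 UMIs in sham, TBI+PBS and TBI+IL-25. In TBI+IL-25 the microglia markers stood at 1.96% of the microglia-like level in astrocyte-like cells and at 4.39% in astrocyte-like cluster 13. What free RNA added to the Ifnb1 counts of these cells was not tested. Astrocyte-like cluster 13, which had the highest Tap1, held Ifnb1 at 10.2 CPM (6.02 to 16.0) in TBI+IL-25 and 0 UMIs in TBI+PBS. Irf1 in that cluster was 20.3 CPM (15.0 to 26.8) with vehicle and 83.5 CPM (70.6 to 98.1) with IL-25.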
